A study of Mus musculus with 9 samples.

Results

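Lungs of mice that received copper oxide nanoparticles and TTM were compared with lungs of saline-treated mice, across all genes of a whole-lung RNA table. These were 6 of the 9 libraries of the study, chosen by their group labels alone: 3 labelled CuO NPs + TTM (called CuO_TTM here) and 3 labelled control, each from a different C57BL/6J mouse, an inbred laboratory strain. The CuO_TTM mice had 100 µl of a 2 mg/mL suspension of copper oxide particles instilled once into the trachea and drank water with TTM at 0.02 mg/mL. The control mice had 100 µl of sterile saline instilled. All lungs were taken on day 7. The remaining 3 libraries (CuO) came from mice with the same particles and no TTM, and they enter here for the spread between mice and as a reference beside single results. The labels do not say what TTM stands for, and age and sex are not given in the sources used here. No group received TTM without particles, so what the particles did and what TTM did cannot be told apart in this comparison.

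Copper oxide particles that reach the alveoli are taken up by macrophages and release copper ions in their lysosomes. Cells hold copper with transporters, chaperones and metallothioneins, and several enzymes that oxidise or crosslink proteins depend on it. In an injured lung, resident alveolar macrophages are joined by macrophages that develop from blood monocytes, fibroblasts lay down collagen, surviving cells divide to replace lost ones, and T cells and antibody-secreting plasma cells can settle in the tissue for weeks. The airways are lined by ciliated cells, which move mucus, and by club cells, which secrete secretoglobins and metabolise foreign chemicals.

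Levels are in TPM, a unit of transcript abundance that divides by transcript length and fixes the total of each library, so depth is unknown. Surfactant gene Sftpc (17957, 46991 and 60051 TPM in CuO_TTM replicates 1, 2 and 3; 45711, 54795 and 39066 in control) and the alveolar type 1 gene Ager (1086, 1468 and 1869 TPM in CuO_TTM; 1427, 1583 and 1653 in control) were abundant in all 6 libraries, as the tissue label has it. The club cell gene Scgb1a1 held 17.3% to 22.5% of all TPM in control and 8.17%, 0.18% and 0.353% in CuO_TTM replicates 1, 2 and 3. A smaller share for one gene leaves a larger one for the rest. The median log2 difference of all genes, CuO_TTM minus control, was 0.24, with 71% of genes above 0. By library, the median relative to control was 0.08, 0.295 and 0.35 in CuO_TTM replicates 1, 2 and 3. The part of Scgb1a1 in this shift was not tested. Differences below are to be read against 0.24, and calls that median-ratio or quantile scaling removed are named. CuO replicate 1 stood apart from the other 8 libraries, with a median log2 deviation of -0.53 from the average library and -0.16 to 0.26 in the rest. All 9 libraries share 1 estimate of the spread in the test.

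Of 15487 genes tested, 277 were higher in CuO_TTM than in control (1.79% of genes) and 17 were lower (0.11%), by limma with Benjamini-Hochberg adjusted p under 0.05 over all genes, 294 in all (1.9%). In each of the 294 the 3 CuO_TTM libraries lay entirely above or entirely below the 3 control libraries. Fold changes are differences of log2(TPM + 1), which understate the change of genes of low level. The 12 called genes with the largest rise, leaving out predicted genes and receptor segments, were Gpnmb, Ms4a7, Cxcr6, Trem2, Jchain, Pdcd1, Tnc, Cd8a, Cd3g, S100a14, Cd8b1 and Icos. These are genes of T cells, antibody-secreting cells, macrophages, matrix and epithelium. The 12 with the largest fall were Pon1, Fabp1, Meig1, Npr3, Wdr66, Scgb1c1, Ccdc33, Ppbp, Inmt, Gstm1, Cytl1 and Tubb1. The groups did not overlap in 36.8% of all genes (31% higher, 5.73% lower), but after median-ratio scaling 16.1% lay higher and 14% lower. An unadjusted p under 0.05 was reached by 2795 of the 15487 genes, the base for such counts in the lists below.

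The counts depended on the libraries in the test. With the 6 libraries of the 2 groups alone, 1244 genes were higher and 134 lower (8.03% and 0.865%), and without CuO replicate 1 the counts were 1487 and 173 (9.6% and 1.12%). All 294 genes were among those called in each of these fits. Lower genes made up a larger share of the calls after scaling: median-ratio scaling gave 214 higher and 49 lower, of which 192 were called without scaling too, and quantile normalization gave 227 and 64, of which 200 were. With the gene Scgb1a1 left out, 105 genes were higher and 16 lower, and calls lost in that fit are not marked below. Leaving out a control library or CuO_TTM replicate 2 or 3 left 3 to 27 genes higher and 0 to 2 lower. CuO_TTM replicates 2 and 3 correlated at 0.973 across genes.

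**Figure D1:**
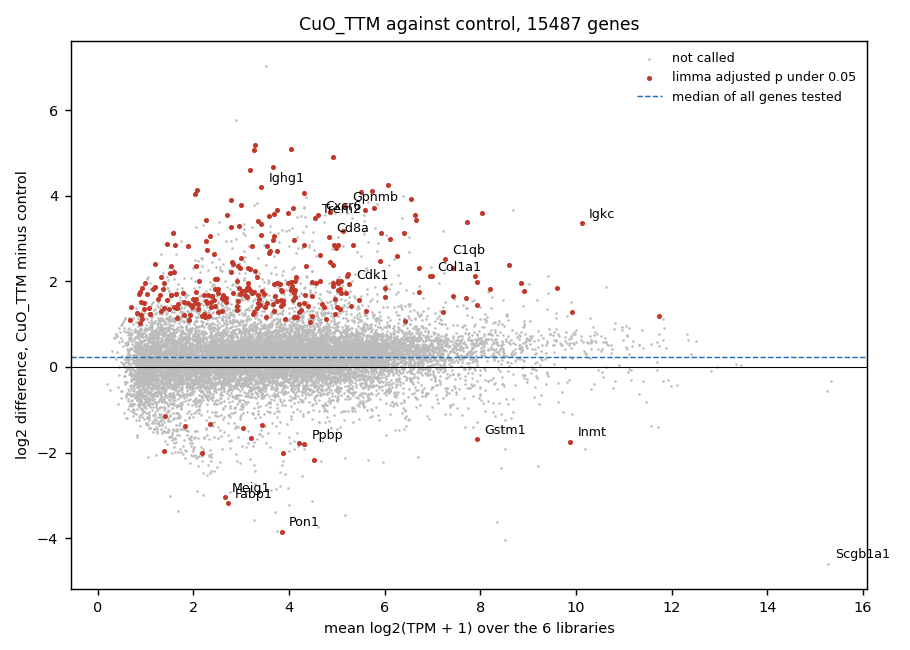
Each point is 1 of the 15487 genes tested. The horizontal axis is the mean log2(TPM + 1) over the 3 control and 3 CuO_TTM libraries and the vertical axis is the log2 difference, CuO_TTM minus control. Red points passed an adjusted p of 0.05 (277 higher, 17 lower) and the dashed line marks the median of all genes, 0.24.

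Of 16 genes of the T cell list, 10 were called higher, against 1.79% of all genes, and 0 lower. In all 16 every CuO_TTM library lay above every control library, against 31% of all genes. Their median log2 difference was 2.31. Cd8a (ENSMUSG00000053977), a chain of the co-receptor of cytotoxic T cells, measured 75.03, 105 and 66.1 TPM in the CuO_TTM libraries and 7.02, 9.16 and 11.03 TPM in the controls. Its log2 difference was 3.04 (SE 0.42, limma adjusted p = 0.0188). The partner chain Cd8b1 measured 91.1, 145 and 93.9 TPM against 13.1, 14.6 and 14.8 TPM (log2 difference 2.84, adjusted p = 0.0208). All 6 values of each gene thus fell into 2 separate ranges. In whole-lung RNA, more cells of a type and more RNA per cell cannot be told apart.

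The signalling chains of the T cell receptor rose with the co-receptor. Cd3g stood at 176, 259 and 159 TPM in the CuO_TTM lungs and at 23.2, 19.9 and 28.1 TPM in the controls (log2 difference 2.99, adjusted p = 0.0188). Cd3e differed by 2.37 (SE 0.33, adjusted p = 0.0188), and the surface glycoprotein gene Thy1 by 2.59 (SE 0.29, adjusted p = 0.014). The costimulatory receptor gene Icos measured 47.2, 20.2 and 14.2 TPM against 1.45, 2.8 and 3.58 TPM and was highest in CuO_TTM replicate 1. Its call (log2 difference 2.84, adjusted p = 0.0446) was lost with median-ratio and with quantile scaling. Cd3d and Cd247 were lost with both scalings too, and Trac with median-ratio scaling, which left 6 of the 16 T cell genes called, at a median of 2.08.

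In the list of T cells that stay in tissue, and of their inhibitory receptors, Cxcr6, Pdcd1 and Cxcr3 were called higher. These were 3 of 12 tested genes, against 1.79% of all genes, and 0 were lower (median 2.34). Another listed gene, Zfp683, was below the abundance filter. Cxcr6, a chemokine receptor of lung-resident T cells, stood at 50.1, 133 and 80.4 TPM in the CuO_TTM lungs and at 6.39, 5.92 and 5.98 TPM in the controls (log2 difference 3.54, SE 0.52, adjusted p = 0.0208). Pdcd1, the gene of the inhibitory receptor PD-1, measured 28.5, 23.7 and 18.5 TPM against 0.77, 0.92 and 3.48 TPM (log2 difference 3.29, adjusted p = 0.0188). The chemokine receptor gene Cxcr3 differed by 2.71 (adjusted p = 0.0182).

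Among 16 genes of cytotoxic granules and natural killer cells, Gzmk and Ctsw were called higher, against 1.79% of all genes, and the median was 1.13. The list was mixed: 12 of the 16 lay above 0, against 71% of all genes, and the lowest difference was -1.11. Gzmk, a granzyme, stood at 38.9, 33.9 and 18.8 TPM in the CuO_TTM lungs and at 3.22, 2.62 and 6 TPM in the controls (log2 difference 2.67, adjusted p = 0.0236). Ctsw, a protease of cytotoxic lymphocytes, differed by 2.77 (adjusted p = 0.0188). Nkg7, a granule membrane gene, measured 266, 228 and 137 TPM against 35.7, 54.8 and 80.03 TPM without overlap and missed the threshold (log2 difference 1.89, adjusted p = 0.0581; 0.0262 in the 2 groups alone).

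The T cell genes also separated CuO_TTM from particles alone. In CuO_TTM against CuO, where 0.691% of all genes were called higher and 0.0194% lower, 12 of the 16 T cell genes were called higher. Cd8a measured 3.68, 12.3 and 3.37 TPM in the CuO libraries, a log2 difference of 3.65 between CuO_TTM and CuO (SE 0.42, adjusted p = 0.0156). For Cxcr6 the CuO lungs held 2.02, 11.7 and 8.04 TPM, a log2 difference of 3.55 (adjusted p = 0.0213). For Cd8a, CuO replicates 1 and 3 lay below the control range and replicate 2 just above it.

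Markers of lymphoid organs that could be taken along with the lung were examined as whole lists. Of the thymus list 7 of 12 genes were tested and Themis alone was called (8.09, 16.5 and 8.41 TPM, against 1.71, 1.57 and 2 in the controls), a gene that mature T cells also express. Of the defining genes of immature T cells, Rag1 measured 0.02, 0 and 0 TPM, Rag2 0, 0 and 0, Ptcra 0.16, 0 and 0 and Dntt 0.95, 0.07 and 0.18 TPM in CuO_TTM. These defining genes were at or near 0, but summed over the list the level ranged from 71.3 to 83.9 TPM in control and from 94 to 147 TPM in CuO_TTM. Of the lymph node and follicle list Ltb, a lymphotoxin chain, was called among 8 tested genes (log2 difference 2.00, adjusted p = 0.0264), a call that both scalings removed, and all 8 lay above 0. The genes of lymph node vessels, Glycam1 and Madcam1, measured 0.31, 0 and 0.22 and 0.19, 0 and 0.11 TPM in the CuO_TTM libraries. The list summed to 186 to 205 TPM in control and 332 to 471 TPM in CuO_TTM, without overlap. The part of lymphoid tissue in the T cell and antibody values was not tested.

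Antibody constant genes were among the genes called higher. The kappa light chain constant gene Igkc (ENSMUSG00000076609) stood at 4522, 3988 and 2472 TPM in the CuO_TTM lungs and at 364, 327 and 343 TPM in the controls (log2 difference 3.36, SE 0.32, adjusted p = 0.00666). Of the constant genes of IgG, Ighg2b measured 229, 261 and 176 TPM against 17.5, 8.86 and 10.3 TPM (log2 difference 4.11, SE 0.33, adjusted p = 0.00191). Ighg1 measured 23.8, 79.9 and 46.5 TPM against 1.96, 1.21 and 1.36 TPM (log2 difference 4.20, adjusted p = 0.00675). These 3 genes held their call when control replicate 1 or CuO_TTM replicate 2 or 3 was left out, and Ighg2b held it in each of the 9 fits that left out 1 library, but not with CuO_TTM replicates 2 and 3 both left out (adjusted p = 0.129). Constant genes of one isotype family are similar in sequence and reads can be shared between them.

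Jchain, which joins IgA and IgM subunits, stood at 284, 401 and 315 TPM in the CuO_TTM lungs and at 26.97, 27.8 and 35.5 TPM in the controls (log2 difference 3.42, SE 0.51, adjusted p = 0.0208). Of 17 plasma cell genes 7 were called higher, against 1.79% of all genes, and 0 lower, with a median of 1.22. Beside these genes the called members were Mzb1, a chaperone of antibody assembly, and the constant genes Igha and Ighg2c. Jchain and Mzb1 were thus the only called members that are not antibody constant genes. The called constant genes are counted again among the segments and constant genes below. In CuO_TTM against CuO 6 of the 17 were called higher, against 0.691% of all genes, among them Igkc (log2 difference 2.55, adjusted p = 0.0156). Igkc in the mice without TTM stood at 638, 408 and 842 TPM, above every control and below every CuO_TTM library.

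Some variable segments were called higher as well. Summed over 88 kappa variable segments the level was 573 to 812 TPM in control and 6830 to 7040 TPM in CuO_TTM, and 25 of the 88 were called higher. Of 83 heavy chain variable segments 21 were called, and of 38 T cell receptor alpha and 21 beta variable segments 7 and 3. In all, 69 of 253 antibody and T cell receptor segments and constant genes were called higher, against 1.79% of all genes, and 0 lower. Similar segments can trade reads, so the value of any one is uncertain. Of 6 T cell receptor gamma and delta genes 2 were called higher, with a median of -0.03.

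B cell genes gave no call. Of 13 B cell genes 0 were called by limma, 1 had an unadjusted p under 0.05 and 1 was called in the 2 groups alone, with a median of 0.39. Cd79b, a chain of the B cell receptor complex, stood at 77.3, 25.01 and 19.4 TPM in the CuO_TTM lungs and at 33.2, 25.6 and 15.1 TPM in the controls. For Cd79b, CuO_TTM replicate 1 was high and replicates 2 and 3 lay within the control range. Fcer2a, the gene with an unadjusted p under 0.05, measured 11.65, 9.26 and 15.16 TPM against 5.35, 3.53 and 2.79 TPM. Its groups did not overlap (limma adjusted p = 0.183, and 0.0267 in the 2 groups alone). The fat cell list summed to 273 to 922 TPM in control and 1070 to 2210 TPM in CuO_TTM, with 0 of its 6 tested genes called. Replicate 1 held the most, with 33.9, 0.35 and 0.14 TPM of the fat cell gene Adipoq in replicates 1, 2 and 3 (7.4, 0.16 and 0 in control), and the lowest mean of the alveolar type 1 list (-0.81, against 0.05 and 0.36 relative to control). The part of this in the B cell values was not tested. Without replicate 1 the B cell median was -0.20, while those of the T cell and plasma cell lists were 2.06 and 1.12.

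**Figure D2:**
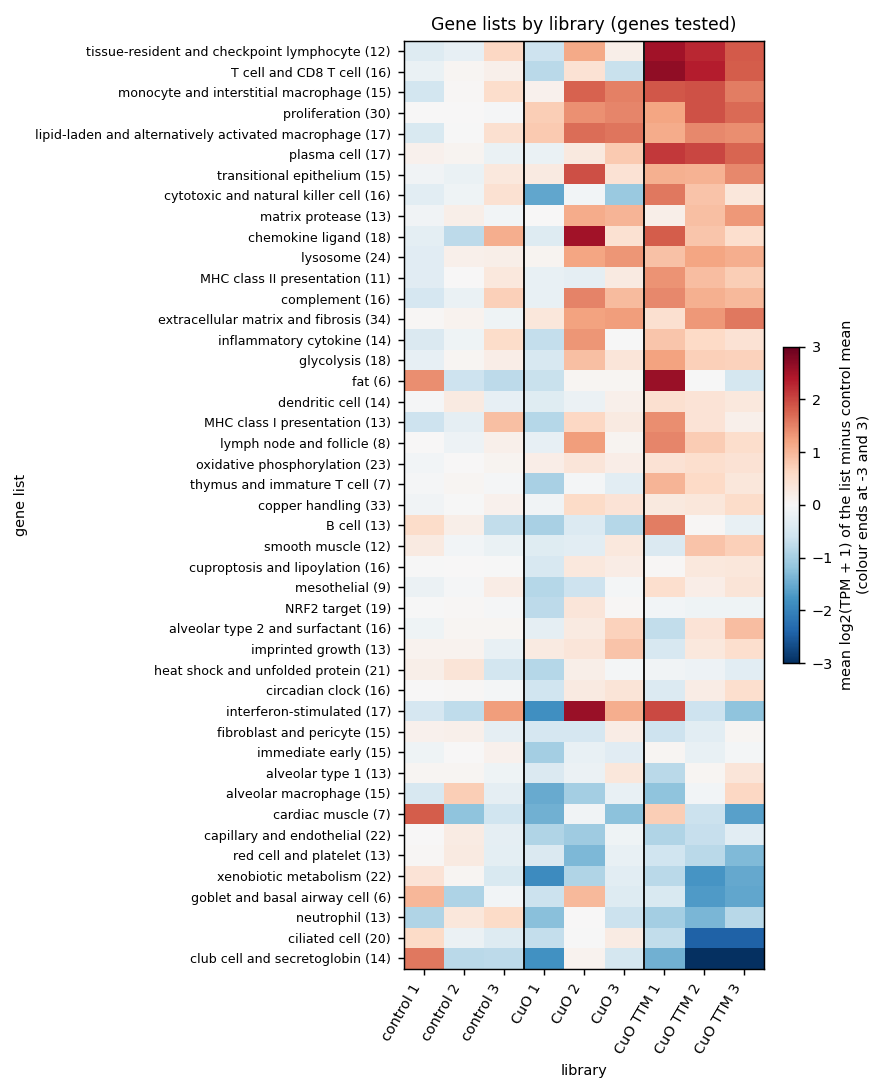
Rows are gene lists with at least 5 tested genes (number tested in brackets), ordered by their median difference between CuO_TTM and control, and columns are the 9 libraries. Colour is the mean log2(TPM + 1) of the list minus its mean in the 3 control libraries. The T cell and plasma cell rows are high in the 3 CuO_TTM columns, and the ciliated and club cell rows are lowest in CuO_TTM replicates 2 and 3.

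Genes of antigen presentation by MHC class II had a median of 0.94, with 10 of 11 non-overlapping and higher, against 31% of all genes (16.1% after median-ratio scaling), and 0 called. H2-Ab1 stood at 1356, 1209 and 989.7 TPM in the CuO_TTM lungs and at 371, 507 and 632 TPM in the controls (log2 difference 1.25, limma adjusted p = 0.0956; 0.028 in the 2 groups alone). At an unadjusted p under 0.05 there were 9 of 11, and with the 2 groups alone 4 were called, but 0 after median-ratio scaling of those 6 libraries.

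Genes of macrophages that develop from monocytes rose in part. Of 15 genes of monocytes and interstitial macrophages 4 were called higher, against 1.79% of all genes, and 0 lower (median 1.86). Ms4a7, a membrane gene of monocyte-derived macrophages, stood at 94.8, 134 and 77.4 TPM in the CuO_TTM lungs and at 4.43, 5.89 and 13.9 TPM in the controls (log2 difference 3.61, SE 0.50, adjusted p = 0.0188). The genes of the complement starter C1q moved together. C1qb measured 379, 399 and 318 TPM against 38.4, 56.02 and 116 TPM (log2 difference 2.51, adjusted p = 0.0208), and C1qa and C1qc differed by 2.30 and 2.32 (adjusted p = 0.0248 and 0.026). In the complement list of 16 genes the other called gene was Cfp, properdin, whose call both scalings removed, and the median was 0.91.

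Of 17 genes of lipid-laden and alternatively activated macrophages 4 were called higher, against 1.79% of all genes: Gpnmb, Trem2, Fabp5 and Lgals3 (median 1.56). Above 0 lay 13 of the 17, against 71% of all genes, and the lowest difference was -1.03. Gpnmb, a glycoprotein of macrophages loaded with lipid or debris, stood at 65.8, 255 and 135 TPM in the CuO_TTM lungs and at 3.71, 11.7 and 14.9 TPM in the controls (log2 difference 3.75, SE 0.76, adjusted p = 0.0441). Trem2, a lipid receptor, measured 32.4, 142 and 97.6 TPM against 2.92, 7.76 and 8.97 TPM (log2 difference 3.48, adjusted p = 0.0246). CuO_TTM replicate 1 was the lowest of its group for both and still lay above every control. Fabp5, a fatty acid binding protein, differed by 1.82 (SE 0.24, adjusted p = 0.0182). Spp1, osteopontin, measured 142, 618 and 715 TPM against 81.9, 75.6 and 383 TPM and overlapped through control replicate 3 (adjusted p = 0.318). Lgals3 was lost under median-ratio and quantile scaling.

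None of the genes of these 2 macrophage lists was called in CuO_TTM against CuO. For Gpnmb the CuO libraries held 38.4, 199 and 231 TPM and the log2 difference between CuO_TTM and CuO was 0.11 (95% interval -1.59 to 1.82, adjusted p = 0.979). For Trem2 it was -0.06 (-1.33 to 1.21), and for Ms4a7 1.11 (-0.01 to 2.24). These intervals are wide.

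Resident alveolar macrophage genes were mixed. Of 15 genes 0 were called higher and Fabp1 alone lower, with a median of -0.28. Fabp1, a fatty acid binding protein, stood at 0.6, 0.88 and 2.5 TPM in the CuO_TTM lungs and at 24.1, 44.2 and 5.87 TPM in the controls (log2 difference -3.18, SE 0.61, adjusted p = 0.0372). Ear1, a ribonuclease gene with near-identical family members, measured 5.13, 10.8 and 21.3 TPM against 24.9, 124 and 48.05 TPM (adjusted p = 0.139). Marco, a scavenger receptor that binds particles, measured 11.6, 37.9 and 56.96 TPM against 5.31, 11.4 and 4.21 TPM. Its lowest CuO_TTM library lay just above the highest control, and it did not pass the test (log2 difference 2.04, adjusted p = 0.143), and against CuO (0.68, 0.67 and 4.37 TPM) it was called (log2 difference 3.63, adjusted p = 0.0425). Neutrophil genes pointed down without a call: S100a8, a calcium-binding protein of neutrophils, stood at 138, 130.1 and 190.3 TPM in the CuO_TTM lungs and at 309, 848 and 1792 TPM in the controls (log2 difference -2.36, adjusted p = 0.0728). Of 13 neutrophil genes 6 were non-overlapping and lower, against 5.73% of all genes, 0 were called by limma and 6 had an unadjusted p under 0.05 (2 called in the 2 groups alone, 3 with quantile scaling).

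**Figure D3:**
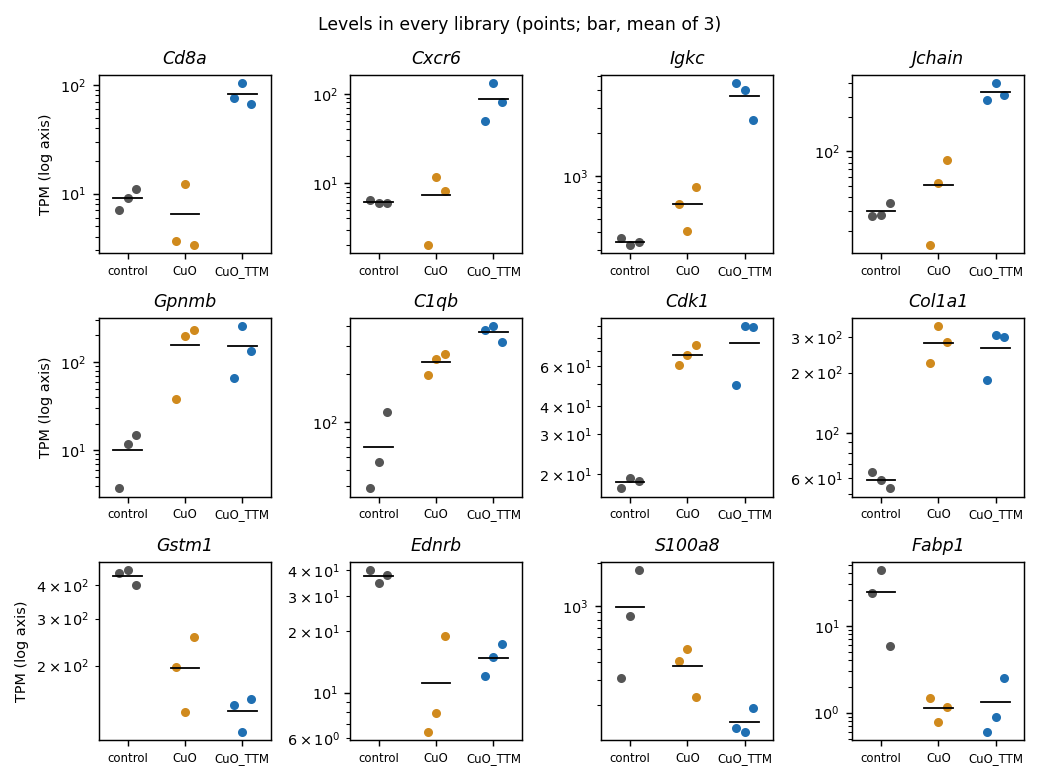
TPM on a log axis of 12 genes in every library, with 3 points for each of control, CuO and CuO_TTM and a bar at the group mean. Cd8a, Cxcr6, Igkc and Jchain are highest in CuO_TTM, while Gpnmb, C1qb, Cdk1 and Col1a1 are above control in both particle groups and Gstm1, Ednrb and Fabp1 below it.

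Of 30 proliferation genes 16 were called higher, against 1.79% of all genes, and 0 lower. The median was 1.66, and 29 were non-overlapping and higher, against 31% of all genes. Plk1, a kinase of mitosis, stood at 14.7, 16.6 and 15.5 TPM in the CuO_TTM lungs and at 3.25, 4 and 3.58 TPM in the controls (log2 difference 1.85, SE 0.22, adjusted p = 0.0145). Cdk1, the kinase that starts mitosis, measured 49.4, 89.98 and 88.8 TPM against 17.3, 19.3 and 18.7 TPM (log2 difference 1.94, SE 0.27, adjusted p = 0.0188). Birc5, survivin, differed by 1.96 (adjusted p = 0.0182). For Cdk1 the lowest CuO_TTM library, replicate 1, lay well above the 3 controls. Mki67, the proliferation marker Ki-67, measured 9.12, 25.4 and 19.9 TPM against 6.79, 5.52 and 5.07 TPM and was not called (log2 difference 1.39, adjusted p = 0.144; 0.0376 without CuO replicate 1).

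The count of 16 was 17 with median-ratio and 16 with quantile scaling, where Tyms, Ube2c and Ccnb2 lost their call and other members gained one. In CuO, Cdk1 was also above control (60.7, 67.2 and 74.2 TPM), 0 of the 30 genes were called between CuO_TTM and CuO, and for Cdk1 that difference was 0.13 (95% interval -0.47 to 0.73). Which cells divided cannot be read from whole-lung RNA.

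Promoters of 3 of these genes are shown because the members moved together. Many mitotic genes carry the cell cycle homology region, core letters TTTGAA, near their start. RefSeq promoters (build GRCm38.p6, 250 bases before to 50 after the start) were found for 25 of the 30 genes, and 14 (56.0%) held TTTGAA on either strand, against 20.2% of 27025 genes in the table. Capitals mark the match, or its reverse complement where the match is on the other strand, which is a description of letters and not of a bound site. The genes are those of smallest p with a single promoter that holds the letters: Plk1 (chr7:122159185-122159484, plus strand), Cdk1 (chr10:69352863-69353162, minus strand) and Top2a (chr11:99024140-99024439, minus strand), the topoisomerase that separates sister chromosomes.
Plk1: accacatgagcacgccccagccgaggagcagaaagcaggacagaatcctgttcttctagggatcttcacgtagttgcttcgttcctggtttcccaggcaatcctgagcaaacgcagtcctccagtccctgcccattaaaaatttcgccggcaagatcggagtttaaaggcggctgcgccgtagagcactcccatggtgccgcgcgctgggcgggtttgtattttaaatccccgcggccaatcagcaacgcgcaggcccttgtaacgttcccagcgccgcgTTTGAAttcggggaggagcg
Cdk1: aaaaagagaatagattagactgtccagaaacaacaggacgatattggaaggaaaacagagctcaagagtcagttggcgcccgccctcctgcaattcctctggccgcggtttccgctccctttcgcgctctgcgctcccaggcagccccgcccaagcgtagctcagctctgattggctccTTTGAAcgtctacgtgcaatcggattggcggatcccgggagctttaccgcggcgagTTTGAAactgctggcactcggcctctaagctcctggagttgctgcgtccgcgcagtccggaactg
Top2a: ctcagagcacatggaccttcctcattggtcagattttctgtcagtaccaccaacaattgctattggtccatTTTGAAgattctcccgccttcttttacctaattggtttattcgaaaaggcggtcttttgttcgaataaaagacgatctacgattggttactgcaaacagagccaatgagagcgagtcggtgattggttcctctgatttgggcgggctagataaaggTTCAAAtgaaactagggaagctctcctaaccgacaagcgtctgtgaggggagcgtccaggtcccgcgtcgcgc
The matches began 30 bases after the start in Plk1, 71 and 15 bases before it in Cdk1, and 179 and 23 bases before it in Top2a.

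Matrix genes rose in part. Of 34 tested genes of the extracellular matrix list 5 were called higher, against 1.79% of all genes, and 0 lower. The 5 were Col1a1, Col1a2, Col3a1, Col5a1 and Tnc (median of the list 0.84). Col1a1, which encodes part of fibrillar collagen I (ENSMUSG00000001506), stood at 183, 307 and 300.1 TPM in the CuO_TTM lungs and at 64.1, 58.6 and 53.1 TPM in the controls (log2 difference 2.11, SE 0.27, adjusted p = 0.0182). Tnc, tenascin C, a matrix protein of healing tissue, measured 10.8, 50.4 and 83.5 TPM against 3.61, 4 and 2.83 TPM (log2 difference 3.06, adjusted p = 0.0387). Replicate 1 was again the lowest CuO_TTM library. Col3a1 differed by 1.77 (adjusted p = 0.0459) and was lost with quantile scaling. Without CuO_TTM replicates 2 and 3 the median of the list was 0.38, and without replicate 1 it was 1.31.

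Col1a1 measured 223, 339.8 and 282 TPM in CuO, and its difference between CuO_TTM and CuO was -0.11 (95% interval -0.72 to 0.49). Of 13 matrix proteases 0 were called (9 at an unadjusted p under 0.05, median 1.10). Mmp14, a membrane-bound collagenase, stood at 102, 139 and 145 TPM in the CuO_TTM lungs and at 28.1, 33.6 and 46.3 TPM in the controls (log2 difference 1.82, adjusted p = 0.0549; called with median-ratio and quantile scaling and in the 2 groups alone). Mmp9, a gelatinase that neutrophils also make, pointed the other way (5.57, 3.45 and 6.47 against 10.4, 26.6 and 17.3 TPM, adjusted p = 0.0915).

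Airway genes were low, most of all in 2 of the 3 CuO_TTM libraries. All 20 tested ciliated cell genes lay below 0, with a median of -1.94, 14 of them non-overlapping against 5.73% of all genes, and 1 was called. That gene, Meig1, stood at 5.89, 0.55 and 0 TPM in the CuO_TTM lungs and at 28.04, 12.2 and 14.5 TPM in the controls (log2 difference -3.04, SE 0.64, adjusted p = 0.0479); the call was lost with median-ratio and quantile scaling, and with quantile scaling another gene of the list, Pifo, was called lower. Foxj1, the regulator of motile cilia, measured 18.7, 1.07 and 0.87 TPM against 28.1, 18.6 and 19.7 TPM. Replicate 1 lay within the control range and replicates 2 and 3 far below it (adjusted p = 0.144). In CuO, Foxj1 stood at 16.5, 26.4 and 26.2 TPM. Between CuO_TTM and CuO, 2 of the 20 ciliated genes were called lower in CuO_TTM, against 0.0194% of all genes. Outside the list, Wdr66, a gene of the ciliary axoneme, was called lower (3, 0.65 and 0.76 against 8.52, 8.39 and 7.62 TPM, log2 difference -2.02, adjusted p = 0.0304).

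All 14 tested club cell genes also lay below 0 (median -2.87), with 0 called by limma, 10 at an unadjusted p under 0.05 and 2 called with median-ratio scaling. Scgb1a1 stood at 81744, 1804 and 3526 TPM in the CuO_TTM lungs and at 225294, 187201 and 173301 TPM in the controls, non-overlapping, with a log2 difference of -4.59 (SE 1.14, adjusted p = 0.0808). Scgb3a2, another secretoglobin, measured 549, 25.3 and 50.3 TPM against 3556, 1269.9 and 732 TPM (adjusted p = 0.0823). Scgb1c1, a secretoglobin outside the list, was called lower (8.7, 3.1 and 8.78 against 30.2, 31.9 and 24.1 TPM, log2 difference -2.02, adjusted p = 0.0306). In replicate 1 alone the ciliated and club cell medians were -0.76 and -1.38. With replicate 1 left out they were -2.61 and -3.13, with 12 and 6 genes called lower, against 106 of all 15487 genes. Goblet and basal airway genes (6 tested) were lower in replicates 2 and 3, at -1.7 and -1.57 relative to control against -0.45 in replicate 1. So was the 1 tested gene of the list of large-airway cartilage, at -3.08 and -3.18 against -0.61. Smooth muscle genes were higher in the same 2 libraries, at 0.86 and 0.71 against -0.44 in replicate 1. The part of the sampled tissue in the airway values was not tested. Control replicate 1 was itself high in club cell genes, at 1.59 relative to the control mean, against -0.80 and -0.78.

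**Figure D4:**
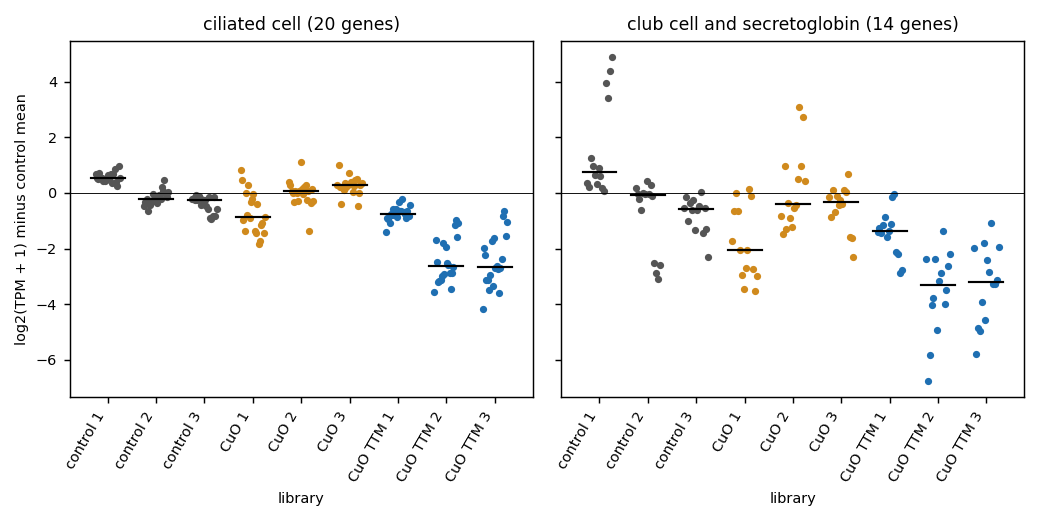
Each point is 1 gene of the ciliated cell list (left) or the club cell list (right) in 1 library, as log2(TPM + 1) minus its control mean, and bars are medians. CuO_TTM replicates 2 and 3 lie lowest in both panels, and replicate 1 lies between them and the controls.

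Promoters of the ciliated genes are shown because all tested members lay on one side of 0. Cilia genes are driven by FOXJ1 and RFX factors, and the site of RFX factors holds the letters GTTGCC. Promoters were found for 17 of 22 ciliated cell genes, and 9 (52.9%) held GTTGCC on either strand, against 14.1% of all genes. Chosen as above, Sntn (chr14:13670626-13670925, plus strand), a protein of the tip of motile cilia, and Ccdc113 (chr8:95533850-95534149, plus strand), a ciliary protein, read as follows.
Sntn: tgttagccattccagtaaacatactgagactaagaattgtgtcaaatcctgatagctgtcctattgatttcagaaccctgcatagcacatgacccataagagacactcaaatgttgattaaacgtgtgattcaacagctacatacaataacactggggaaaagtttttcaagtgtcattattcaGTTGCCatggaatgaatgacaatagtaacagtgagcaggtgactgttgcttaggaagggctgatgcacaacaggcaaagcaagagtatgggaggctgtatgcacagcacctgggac
Ccdc113: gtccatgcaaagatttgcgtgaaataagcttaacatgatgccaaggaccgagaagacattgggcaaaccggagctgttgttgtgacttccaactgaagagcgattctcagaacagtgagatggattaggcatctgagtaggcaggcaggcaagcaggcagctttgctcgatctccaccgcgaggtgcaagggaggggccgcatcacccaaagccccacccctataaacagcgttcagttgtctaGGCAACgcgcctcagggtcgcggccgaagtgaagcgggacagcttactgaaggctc
The match began 66 bases before the start in Sntn and 6 bases before it in Ccdc113. Neither gene was called, and no promoter found for Meig1, the 1 called gene of the list, held GTTGCC.

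Genes that metabolise foreign compounds lay lower, with 1 call. Of 22 genes Gstm1 alone was called lower and 13 were non-overlapping and lower, against 5.73% of all genes (median -1.40). With median-ratio scaling 4 were called lower. In the 2 groups alone 8 were, against 0.865% of all genes. Gstm1, a glutathione transferase with close family members, stood at 143, 113 and 150 TPM in the CuO_TTM lungs and at 445, 457 and 400 TPM in the controls (log2 difference -1.68, SE 0.27, adjusted p = 0.0232). The monooxygenase gene Fmo1 measured 99.9, 94.1 and 120.1 TPM against 196, 265 and 219 TPM (adjusted p = 0.0641) and was called with each scaling. Pon1, an esterase that breaks down organophosphates and lactones, had the largest fall among the called genes, with 11.6, 0.9 and 1.3 TPM against 69.4, 53.9 and 41.03 TPM (log2 difference -3.84, SE 0.67, adjusted p = 0.0287). Inmt, a methyltransferase abundant in lung fibroblasts, measured 516, 449 and 577 TPM against 1589, 2000.1 and 1589 TPM (log2 difference -1.74, adjusted p = 0.0347). Gstm1 and Inmt were low in all 3 CuO_TTM libraries, and also in CuO, where Gstm1 held 197, 134 and 256 TPM and Inmt 397, 272 and 672 TPM.

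Vessel and blood genes were also on the lower side. Of 22 capillary and endothelial genes 0 were called and 6 had an unadjusted p under 0.05, against 2795 of all 15487 genes. Of the 22, 10 were non-overlapping and lower, against 5.73% of all genes. The median was -0.63, and 1 gene was called with median-ratio scaling and 5 in the 2 groups alone. Ednrb, the endothelin receptor of lung capillaries, stood at 12.1, 15.01 and 17.4 TPM in the CuO_TTM lungs and at 40.3, 34.6 and 37.96 TPM in the controls (log2 difference -1.30, adjusted p = 0.11; 0.0123 in the 2 groups alone). Npr3, the clearance receptor of natriuretic peptides, was called lower (6.86, 10 and 13.3 against 39.99, 87.95 and 30.6 TPM, log2 difference -2.18, adjusted p = 0.0481). Ppbp, a platelet chemokine, measured 10.8, 11.7 and 7.05 TPM against 24.9, 44.7 and 42.4 TPM (log2 difference -1.80, adjusted p = 0.0413), and Tubb1, the platelet tubulin, 4.01, 4.31 and 3.71 TPM against 10.5, 15.6 and 11.5 TPM (log2 difference -1.42, adjusted p = 0.0319). Pf4, another platelet chemokine, that macrophages also make, pointed up (0.88, adjusted p = 0.158). Of the other genes with a large fall, Cytl1, a small secreted protein, measured 4.74, 5 and 3.08 TPM against 14.9, 15.1 and 15.9 TPM (adjusted p = 0.0435, lost with both scalings) and Ccdc33 0.88, 0.25 and 0 TPM against 3.71, 5.87 and 3.33 TPM (adjusted p = 0.0279). In the list of 13 red cell and platelet genes Ppbp was the 1 called, a call that both scalings removed, and the median was -1.09.

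In the alveolar lining no cell type gene was called. Of 16 alveolar type 2 genes and 13 type 1 genes 0 were called and 0 had an unadjusted p under 0.05, with medians of 0.08 and -0.27; the first turned to -0.18 with median-ratio scaling. In the list of transitional epithelium, cells between type 2 and type 1, the median was 1.17 and Lgals3 alone was called. Lgals3 is also counted in the list of lipid-laden macrophages, and both scalings removed its call. Krt18, a keratin, stood at 279, 173 and 232 TPM in the CuO_TTM lungs and at 82.7, 72.4 and 121 TPM in the controls (adjusted p = 0.111; 0.0301 in the 2 groups alone). S100a14, an epithelial calcium-binding protein, was called higher (64.6, 86.9 and 113 against 10.6, 6.67 and 19.2 TPM, log2 difference 2.84, adjusted p = 0.0382), a call that both scalings removed.

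Genes that handle copper showed no call. Of 33 tested copper genes 0 were called by limma in either direction. An unadjusted p under 0.05 was reached by 8, against 2795 of all 15487 genes. The median was 0.41 (0.20 with median-ratio scaling, where the median of all genes was 0.02). In the 2 groups alone Commd1 and Atox1, which handle copper inside cells, were called higher and Atp7b lower. After median-ratio scaling of those libraries 0 genes were called higher and 1 lower. With quantile normalization of all libraries 1 gene was lower. Mt1, a metallothionein that binds copper and zinc, stood at 239, 122 and 244 TPM in the CuO_TTM lungs and at 74.7, 80.2 and 256 TPM in the controls. Control replicate 3 was the highest of the 6, and the 95% interval of the log2 difference ran from -0.41 to 1.87 (adjusted p = 0.496). Mt2 overlapped in the same way (296, 84.96 and 328 against 51.96, 51.4 and 375 TPM, adjusted p = 0.604).

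The importer gene Slc31a1 stood at 30.3, 37.4 and 44.7 TPM in the CuO_TTM lungs and at 33.4, 36.8 and 47.2 TPM in the controls (log2 difference -0.06, 95% interval -0.98 to 0.85). Atp7b, an exporter, measured 2.31, 2.16 and 4.4 TPM against 6.7, 8.78 and 6.93 TPM, non-overlapping and lower, and was not called (log2 difference -1.13, adjusted p = 0.163; 0.0437 in the 2 groups alone). Its relative Atp7a overlapped (adjusted p = 0.864). Of copper enzymes, the superoxide dismutase gene Sod1 measured 493, 431 and 419.6 TPM against 521, 542 and 650.3 TPM (log2 difference -0.35, adjusted p = 0.477) and the extracellular form Sod3 differed by 0.16 (adjusted p = 0.793), with a sign that both scalings turned. The collagen crosslinking genes Lox and Loxl2 differed by 0.76 and 1.31 (adjusted p = 0.543 and 0.182), and the copper carrier of plasma, Cp, by -0.07 (adjusted p = 0.972). Of 16 genes of cuproptosis and lipoylation, copper-driven cell death through lipoylated enzymes, 0 were called and 1 had an unadjusted p under 0.05. The median was 0.32. Atp7b, also listed there, was the list's 1 gene called in the 2 groups alone. With quantile normalization of all libraries 1 gene of this list was called lower. Its reductase gene Fdx1 differed by -0.02 (95% interval -0.62 to 0.58). In CuO_TTM against CuO 0 genes of either list were called.

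Among 19 tested targets of NRF2, the regulator of the response to oxidants, Hmox1 was called higher and Gstm1 lower, and the median of 0.20 changed sign with each scaling. Hmox1, the haem-degrading enzyme, stood at 105, 147 and 89.6 TPM in the CuO_TTM lungs and at 27.6, 34.6 and 45.7 TPM in the controls (log2 difference 1.63, adjusted p = 0.0436), and both scalings removed its call. Ftl1, a ferritin chain, measured 3557, 3772 and 3438 TPM against 1794, 2258 and 1879 TPM (adjusted p = 0.0725). All 24 lysosome genes lay above 0 (median 0.98), and the protease gene Ctsz was the 1 called (464, 417 and 329 against 106, 139 and 213 TPM, log2 difference 1.44, adjusted p = 0.0446). In the 2 groups alone 12 lysosome genes were called higher, against 8.03% of all genes, and 4 after median-ratio scaling of those libraries. All 18 glycolysis genes lay above 0 too (median 0.80), with Gapdh called (1662, 1379 and 1488 against 499, 695 and 665 TPM, log2 difference 1.29, adjusted p = 0.0419). Both scalings removed the calls of Ctsz and Gapdh.

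Nnat, an imprinted gene of a membrane protein, set the particle groups apart. It measured 12.04, 18.9 and 21.6 TPM in CuO_TTM, 11.2, 13.5 and 8.51 TPM in control and 95.99, 43.8 and 72.9 TPM in CuO. CuO_TTM overlapped control (log2 difference 0.60, adjusted p = 0.399) and lay below every CuO library (log2 difference -1.93, adjusted p = 0.0429).

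**Figure D5:**
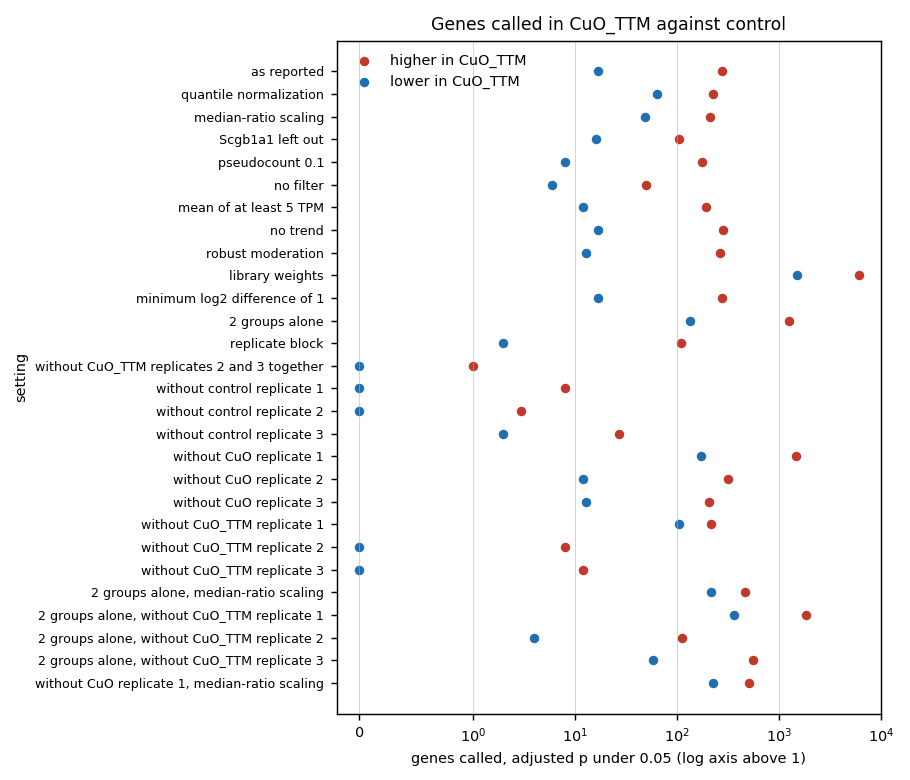
Number of genes called higher (red) and lower (blue) in CuO_TTM than in control under each setting of the analysis, on an axis that is logarithmic above 1. The value as reported, 277 higher and 17 lower, is the top row. Fits without a control library or without CuO_TTM replicate 2 or 3 lie furthest to the left.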

How the data were processed

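Stranded, poly(A)-selected libraries of lung RNA were read on a NovaSeq X Plus instrument, according to the labels' protocols. The authors deposited 1 table of TPM for 57010 Ensembl identifiers and 9 libraries, each from 1 mouse. The submitters' processing notes name fastp, HISAT2, RSEM, DESeq2 and the build GRCm39, with no version, role or order. TPM keep no depth, so no counting interval was computed. GENCODE gave symbols for 52029 identifiers.

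In R 4.3.3, limma 3.58.1 fitted log2(TPM + 1) for the 15487 genes that reached 1 TPM in 3 or more libraries, with 1 mean per group, all 9 libraries and a variance trend; Benjamini-Hochberg adjustment was at 0.05. The fit was tested on simulated data. Named genes were the 12 largest called changes each way (groups apart, mean of 1 TPM or more, no predicted genes or receptor segments), a fixed set, and per described list the 3 genes with the smallest p. Outside this rule, called list members (Mzb1, Igha, Ighg2c, Cfp, Col5a1, Themis, Ltb, Cd3d, Cd247, Trac, Tyms, Ube2c, Ccnb2), copper genes Commd1 and Atox1, marker genes of other tissues (Rag1, Rag2, Ptcra, Dntt, Glycam1, Madcam1, Adipoq, Zfp683) and the promoters' Top2a, Sntn and Ccdc113 were named after their values were seen. Members, lists and tests were chosen with earlier results of these data known. The alternatives tried were other scalings, pseudocounts, filters, variance models and library subsets.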

Additional observations from a re-analysis of the deposited data

How the results depend on the processing

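The 277 higher and 17 lower calls came to 227 and 64 with quantile normalization, 214 and 49 with median-ratio scaling, 105 and 16 without Scgb1a1, 175 and 8 with a pseudocount of 0.1, 50 and 6 with no filter, 192 and 12 with a mean of at least 5 TPM, 6163 and 1507 with library weights (whose estimation stopped before it converged), and 1244 and 134 in the 2 groups alone. They were 284 and 17 with no trend, 268 and 13 with robust moderation, and the same 277 and 17 with a minimum log2 difference of 1. Leaving out 1 library gave 3 to 1487 higher and 0 to 173 lower calls: 8 and 0, 3 and 0, and 27 and 2 without control replicates 1, 2 and 3 in turn, 1487 and 173 without CuO replicate 1, 315 and 12 without CuO replicate 2, 206 and 13 without CuO replicate 3, 215 and 106 without CuO_TTM replicate 1, 8 and 0 without replicate 2, and 12 and 0 without replicate 3. Without CuO_TTM replicates 2 and 3 together it was 1 and 0, where the lone library is assumed to vary like the others. Chosen after seeing the data, the 2 groups alone gave 461 and 216 with median-ratio scaling, 1853 and 365 without CuO_TTM replicate 1, 112 and 4 without replicate 2 and 554 and 59 without replicate 3, and the fit without CuO replicate 1 gave 510 and 224 with median-ratio scaling. The cause was not tested. With the replicate number as a block, 111 higher and 2 lower were called (109 shared). Same-numbered control and CuO_TTM libraries correlated at -0.185, 0.0564 and -0.346 in their deviations. For same-numbered CuO and CuO_TTM libraries the values were 0.0468, -0.128 and 0.286. Of 9 libraries 1 matched its own number best. Whether mice of the same number shared a factor such as a batch was not tested.

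The named genes whose sign changed were uncalled under every setting that turned them. Sod3 turned to -0.214 (quantile), -0.0927 (median-ratio, with all libraries, in the 2 groups and without CuO replicate 1), -0.107 (without Scgb1a1) and -0.00389 (library weights), and Sftpc to 0.842 (quantile) and 0.205 (without CuO_TTM replicate 1). Library weights turned Cd79b to -0.0646, Fdx1 to 0.0328 and Slc31a1 to 0.0343. Without CuO_TTM replicates 2 and 3 Atp7a was -0.0544, Cp 0.378 and Fdx1 0.134. Over the fits that left out 1 library, values ran from -0.297 to 0.0941 for Ager, -0.0567 to 0.685 for Atp7a, -0.0864 to 0.884 for Cd79b, -0.403 to 0.39 for Cp, -0.169 to 0.251 for Fdx1 (0.0309 and 0.00366 without CuO_TTM replicates 2 and 3 in turn), -0.666 to 0.205 for Sftpc and -0.197 to 0.076 for Slc31a1. Cp was 0.117 without CuO_TTM replicate 2 and Slc31a1 0.075 without control replicate 3.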

Other observations

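Of the 294 called genes 62 were in at least 1 list. The genes below lie outside the lists, were chosen after their values were seen, and have no test beyond that over all genes. Of T cell signalling genes, Lat stood at 73.6, 52.4 and 30.7 TPM in the CuO_TTM lungs and at 9.55, 11 and 14.1 TPM in the controls (limma adjusted p = 0.036), and the surface receptor gene Cd6 at 30.6, 17.1 and 12.4 TPM against 2.73, 2.75 and 3.5 TPM (adjusted p = 0.0273). Of macrophage genes, Slc11a1, a metal ion transporter of the phagosome, measured 59.3, 69.1 and 54.2 TPM against 7.15, 8.64 and 11.98 TPM (adjusted p = 0.024), and Lgmn, a lysosomal protease, 645, 489 and 387 TPM against 78.6, 96.5 and 189 TPM (adjusted p = 0.0435). Igf1, a growth factor, measured 15.1, 32.6 and 32.96 TPM against 8.17, 5.72 and 4.14 TPM (adjusted p = 0.0382). Both scalings removed the calls of Lat and Igf1, and median-ratio scaling that of Lgmn.

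Slc26a4, the anion exchanger pendrin, stood at 12.3, 16.9 and 21.8 TPM in the CuO_TTM lungs and at 1.83, 1.68 and 4.74 TPM in the controls (limma adjusted p = 0.0365), with 8.96, 27.6 and 17.1 TPM in CuO. Pkp3, a protein of desmosomes, measured 38.6, 34.6 and 22.6 TPM against 7.54, 6.95 and 10.9 TPM (adjusted p = 0.0212), a call that both scalings removed. Gria1, a glutamate receptor subunit, was among the 17 lower genes, with 0.74, 1.05 and 2 TPM against 4.6, 4.64 and 4.83 TPM (adjusted p = 0.05, below the threshold before rounding) and 0.58, 0.63 and 1.61 TPM in CuO. Interferon-stimulated genes differed within CuO_TTM. Relative to control their mean was 1.98 in replicate 1 and -0.61 and -1.21 in replicates 2 and 3, the controls ranged from -0.76 to 1.26, and 0 of 17 were called, with 0 at an unadjusted p under 0.05.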
